A study of Mus musculus with 15 samples.

Results

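The clustered protocadherins are the genes on mouse chromosome 18 whose symbols begin with Pcdha, Pcdhb or Pcdhg in the GENCODE vM1 annotation of the mm9 genome. In that annotation they comprise 25 gene symbols with 41 variable exons, of which 10 lie in the alpha cluster, 22 in the beta cluster and 9 in the gamma cluster. A variable exon that the annotation lacks is not among them. DNA methylation was read at CpGs in these exons and in the 1 kb upstream of each, where at least 10 reads, both strands added, were present in all 15 libraries. Under that rule 116 CpGs were kept, 30 in alpha, 33 in beta and 53 in gamma, out of 241527 autosomal CpGs. At least 1 CpG was kept in 21 variable exons, and 17 held the 3 CpGs needed for a test (4 alpha, 6 beta and 7 gamma). Another 4 exons (Pcdhb7, Pcdhb15, Pcdhb22 and gamma exon 4) held fewer than 3, and 20 held none. Only 8 of the 116 CpGs lay upstream of an exon, so nearly all values describe the exons themselves. The 17 tested exons carried a median of 7 CCGG sites, the sequence at which this assay cuts, against 4 in the 24 that were not tested.

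The libraries are reduced representation bisulfite sequencing (RRBS) of C57BL/6 bone marrow progenitors, a method that reads methylation in CpG-rich fragments released by a restriction enzyme. The double mutant group (Mx1-cre+, Dnmt3a-/-, Idh2 R140Q; 3 libraries) was malignant stem and progenitor cells sorted by the gate used for megakaryocyte-erythroid progenitors (MEP): lineage-negative, cKit+, Sca1-, CD34- and CD16/32-. The Dnmt3a knockout (Mx1-cre+, Dnmt3a-/-), the Idh2 mutant (Idh2 R140Q with floxed Dnmt3a and no Cre, Mx1-cre-) and the wild type (Mx1-cre+ with floxed Dnmt3a) each gave 2 libraries of MEP and 2 of granulocyte-macrophage progenitors (GMP; CD34+ and CD16/32+). Wild-type and knockout libraries carry GFP in their names and both groups with the Idh2 mutation carry M140. Mx1-cre is an interferon-inducible Cre that is active in blood cells and in other tissues. No age is given. The replicates are labelled biological, but nothing says that they came from separate animals, and GMP and MEP names share a prefix, so p-values measure the spread between these libraries. In bulk samples, more methylated molecules in every cell and more cells of a methylated type cannot be told apart.

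Clustered protocadherins are cell-surface adhesion proteins of the cadherin superfamily, best known for giving each neuron its own surface identity. In the alpha and gamma clusters every variable exon has its own promoter and is spliced to constant exons shared by the whole cluster, whereas each beta gene is a single exon. In neurons, promoter choice depends on DNA methylation and on CTCF and cohesin, which loop a chosen promoter to a distant enhancer. The annotation used here joins most alpha exons under the gene model Pcdha11 (ENSMUSG00000007440.7) and all gamma exons under Pcdhgc5 (ENSMUSG00000023036.7). These exons are therefore numbered along each cluster, and the C-type genes, which neurons use without random choice, are not named separately.

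Read counts summed over all cytosines were 28001420 to 31657332 in double mutant libraries and 20541812 to 26086791 in the knockout. They were 19306705 to 24587340 in the Idh2 mutant and 30751438 to 35204906 in the wild type. A read covering several cytosines is counted at each of them, so these sums are not numbers of sequenced reads. Libraries had a median of 30 to 51 reads per kept CpG. Summed in this way over its CpGs, each exon's value in a library rested on 33 to 1462 read counts, with a median of 252. The number of separate reads is lower where CpGs share reads. Of each 1e+06 such counts, the Dnmt3a gene took 85.2 to 96.2 in double mutant libraries and 105 to 135 in the knockout. It took 94.5 to 122 in the Idh2 mutant and 97.5 to 104 in the wild type. Which exons were deleted is not stated, so this depth does not check the knockout. Y-chromosome counts, per 1e+06 autosomal counts, were 357 to 386 in double mutant libraries and 203 to 303 in the knockout. They were 199 to 288 in the Idh2 mutant and 54.0 to 57.5 in the wild type. Sex-chromosome content thus differs wherever mutant cells are set against wild-type cells, and its part in those results cannot be told apart from genotype. The Y-chromosome share of the double mutant also lay above that of both single mutants without overlap. Its part in those comparisons cannot be told apart from genotype either.

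Across each cluster, the double mutant cells had more methylation in alpha and gamma than any other group, while beta differed little. The alpha cluster stood at 56.7%, 61.0% and 57.4% in the 3 double mutant libraries, taken as the mean over its 30 CpGs, and at 25.6% to 32.7% in the other 12. No double mutant library overlapped the rest. Its mean was 58.4% ± 2.31 (SD, n = 3) in double mutant and 29.1% ± 1.95 (SD, n = 2) in wild-type MEP. It differed from wild-type MEP by 29.2 percentage points, from knockout MEP by 31.6 and from Idh2 mutant MEP by 27.6. Alpha exon 10 holds 17 of the 30 CpGs, and over the other 13 the differences were 19.9, 24.3 and 15.4 points in that order, still without overlap, so 1 exon carries much of the cluster mean. The mean over all autosomal CpGs differed by 4.15, 3.25 and 2.99 points in the same 3 comparisons, and chromosome 18 outside the clusters by 4.56, 3.50 and 3.56. The gamma cluster stood at 50.9%, 55.2% and 51.6% in double mutant libraries and at 36.3% to 48.4% in the other 12, again without overlap. Its double mutant mean exceeded wild-type MEP by 12.7 points, knockout MEP by 11.9 and Idh2 mutant MEP by 10.1. Its parts were unlike: over the 30 CpGs outside gamma exons 7 and 8 these differences were 15.5, 15.3 and 18.7 points without overlap, and over the 23 CpGs inside them 8.99985, 7.57 and -1.11 points, the last with overlap. The knockout MEP libraries differed from each other in gamma (36.3% and 45.0%), and without the first of them the difference from knockout MEP was 7.56 points. The beta cluster stood at 69.5%, 72.3% and 68.0% in double mutant, 70.1% and 71.5% in knockout MEP, 67.8% and 67.2% in Idh2 mutant MEP and 65.6% and 61.9% in wild-type MEP libraries. It was 6.16 points higher in double mutant than in wild-type MEP and 2.45 points higher than in Idh2 mutant MEP, without overlap, but -0.877 points from knockout MEP with overlapping libraries. Without double mutant replicate 2, the difference from Idh2 mutant MEP was 1.26 points. These cluster means carry no test.

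**Figure D1:**
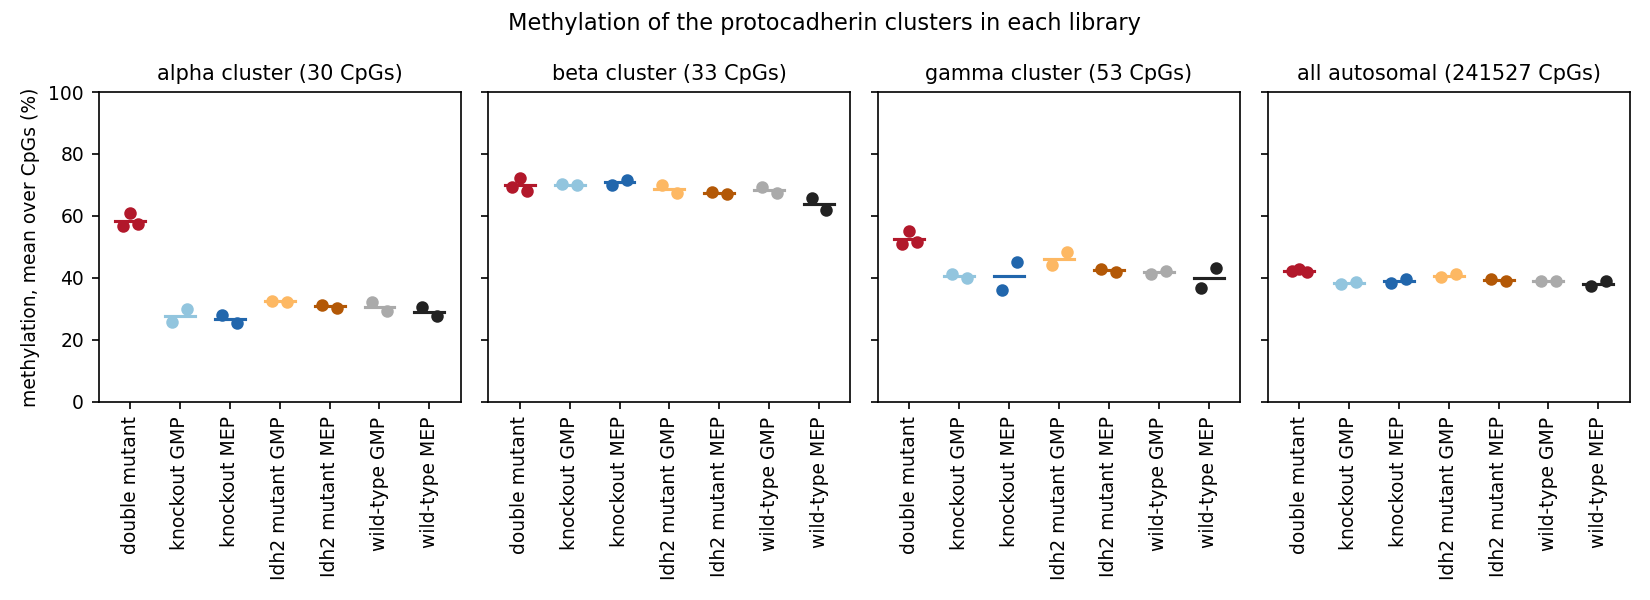
Methylation (%, mean over CpGs) of the alpha, beta and gamma clusters and of all autosomal CpGs kept, with 1 point per library and a line at each group mean. Double mutant libraries sit at 56.7% to 61.0% in alpha, above the 25.6% to 32.7% of the other 12, while in beta all groups lie between 61.9% and 72.3%.

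Single CpGs were compared in the same way. All 3 double mutant libraries lay above all 12 others at 15 of 30 alpha CpGs (50%), 4 of 33 beta CpGs (12.1%) and 6 of 53 gamma CpGs (11.3%), against 6.37% of all kept CpGs and 6.61% of those on chromosome 18 outside the clusters. Without alpha exon 10 the alpha share was 5 of 13 (38.5%). CpGs with all 3 double mutant libraries above the others were then counted by mean level over the 7 groups. Under 20% there were 10 of 14 in alpha, 1 of 3 in beta and 1 of 20 in gamma (background 7.86%). All 10 of these alpha CpGs lie in alpha exon 10, where neighbouring CpGs can share reads, so they describe 1 exon and not the cluster. At 20 to 80% there were 4 of 12, 3 of 15 and 5 of 25 in that order (background 13.1%). Over 80% there were 1 of 4, 0 of 15 and 0 of 8 (background 1.78%). The gamma share was above the background at 20 to 80% only. In the DNA between the annotated variable exons the double mutant was also higher in alpha and gamma. A variable exon that the annotation lacks would be counted in this DNA. The 27 alpha CpGs there averaged 83.5% ± 0.408 in double mutant (SD, n = 3), 75.1% ± 1.00 in knockout MEP, 73.1% ± 5.39 in Idh2 mutant MEP and 68.5% ± 1.76 in wild-type MEP (SD, n = 2 each). The 50 gamma CpGs averaged 78.1% ± 1.34 in double mutant (SD, n = 3), 69.4% ± 1.91 in knockout MEP, 70.9% ± 0.702 in Idh2 mutant MEP and 70.9% ± 5.63 in wild-type MEP (SD, n = 2 each). Double mutant libraries overlapped none of these MEP libraries in either cluster. At the 3 CpGs kept between beta genes the double mutant was 9.89 points above wild-type MEP without overlap, and 2.44 and 8.16 points above knockout and Idh2 mutant MEP with overlap. No kept CpG lay in the shared constant exons.

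Per exon, the level given below is the methylated share of all read counts summed over the exon's CpGs. Each was tested in a quasi-binomial logistic model fitted to all 11023 gene features, with Benjamini-Hochberg adjustment over all of them. An exon is called higher or lower where the adjusted p is under 0.05 and the groups lie at least 10 points apart. Compared with wild-type MEP, 8 of the 17 exons were higher in double mutant and 0 were lower, where the background over all gene features was 11.6% higher and 0.644% lower. The 8 were 3 of 4 alpha exons, 2 of 6 beta genes and 3 of 7 gamma exons. Most gene features are unmethylated, so the calls are also given by mean level over the 7 groups. Under 20% there were 2 calls in 3 exons (background 11.2%), at 20 to 80% there were 3 in 10 (background 22.8%), and over 80% there were 3 in 4 (background 5.68%). Compared with knockout MEP, 7 exons were higher and 1 lower (background 12.9% higher and 0.726% lower), among them all 4 alpha exons. Compared with Idh2 mutant MEP, 5 exons were higher and 0 lower (background 10.8% higher and 1.49% lower), 3 of them in alpha, 1 in beta and 1 in gamma. In the 20 to 80% class, 3 of 10 exons were higher than in knockout MEP (background 36.6%) and 4 of 10 higher than in Idh2 mutant MEP (background 21.4%), so the share against knockout MEP was not above the background. The median difference of the 17 exons was 11.7, 10.7 and 6.66 points in these 3 comparisons, beside 0.223, 0.0579 and 0.125 over all features. The comparisons share the double mutant libraries. In 6 of the 17 exons all 3 double mutant libraries lay above all 12 others, where 14.3% of all gene features did. In the 20 to 80% class this held for 5 of 10 exons and for 21.1% of 707 features.

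**Figure D2:**
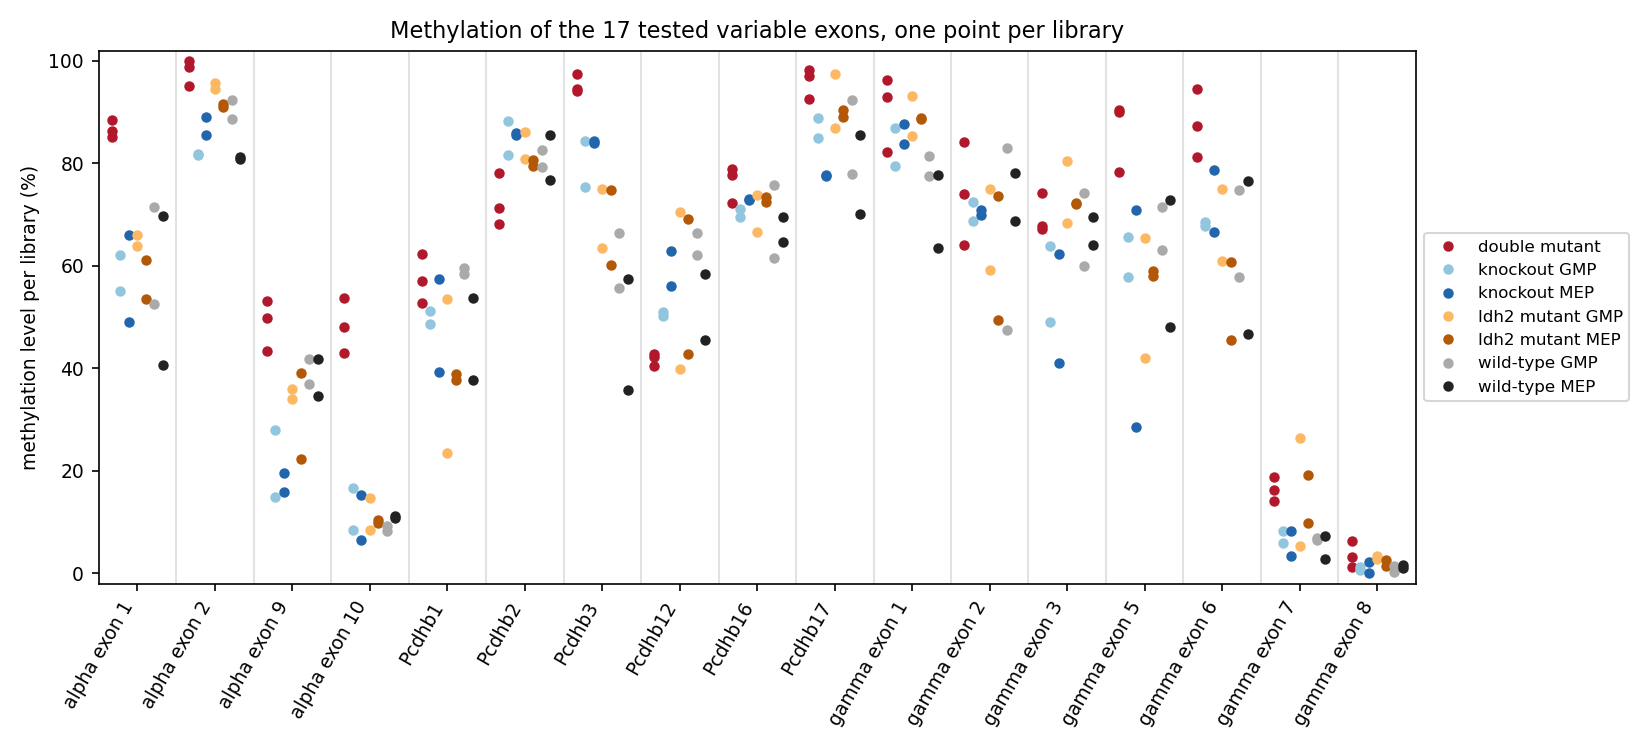
Methylation level (%) of the 17 tested variable exons, in the order in which they lie along the chromosome, with 1 point per library coloured by group. Double mutant points stand clear of all others in alpha exon 10 (42.9% to 53.7% against at most 16.7%), whereas in Pcdhb1 and gamma exon 2 the groups overlap.

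In wild-type cells most variable exons were partly to highly methylated. Over the 4 wild-type libraries, 3 exons were low: gamma exon 8 at 1.12% ± 0.571, gamma exon 7 at 5.82% ± 2.07 and alpha exon 10 at 9.92% ± 1.36 (SD, n = 4 each). The next was alpha exon 9 at 38.8% ± 3.68. The 3 highest were alpha exon 2 at 85.8% ± 5.67, Pcdhb17 at 81.5% ± 9.67 and Pcdhb2 at 81.1% ± 3.83, which do not differ beyond their spread. The other 10 lay between 52.4% (Pcdhb1) and 75.1% (gamma exon 1).

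Alpha exon 10, the last variable exon of the alpha array (transcript Pcdha11-202, chr18:37303623-37306184), stood at no more than 16.7% in every library of the other groups and above 40% in every double mutant library. Its level was 42.9%, 53.7% and 48.0% in double mutant, 15.3% and 6.5% in knockout MEP, 9.9% and 10.3% in Idh2 mutant MEP and 10.8% and 11.3% in wild-type MEP libraries. The GMP libraries read 8.4% and 16.7% in knockout, 8.5% and 14.8% in Idh2 mutant and 8.3% and 9.3% in wild type. The double mutant libraries thus overlapped none of the other 12. The double mutant exceeded wild-type MEP by 37.2 points (adjusted p = 1.31e-05), knockout MEP by 37.3 (adjusted p = 2.82e-05) and Idh2 mutant MEP by 38.1 (adjusted p = 5.14e-05), and each call held without any single library. A contrast added after the data were seen set the double mutant change against the sum of the single mutant changes in MEP. In group mean percentages the double mutant exceeded that sum by 38.2 points. The p of the contrast tests the sum on the log-odds scale (logarithm of methylated over unmethylated reads), not these points. The adjusted p was 0.00783 in the quasi-binomial model and 0.0658 with limma.

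The gain along alpha exon 10 was not even. Its 17 CpGs lie from 8 bases before to 926 bases after the exon start, and at 10 of them every double mutant library exceeded the other 12. The 3 CpGs nearest the start averaged 10.2% ± 3.17 in double mutant (SD, n = 3), and were at 0 in both wild-type MEP libraries. The next 8, from 115 to 645 bases, averaged 55.6% ± 3.36 in double mutant (SD, n = 3) and 2.13% ± 0.134 in wild-type MEP (SD, n = 2). The last 6, from 783 to 926 bases, averaged 51.7% ± 5.41 in double mutant (SD, n = 3) and 25.1% ± 2.24 in wild-type MEP (SD, n = 2), so methylation was already present there. Only 4 CpGs of the exon, from 783 to 811 bases, had 20 reads in all libraries. Tested on these alone the differences were 19.4, 18.1 and 30.2 points, with an adjusted p of 0.170, 0.223 and 0.0888, against wild-type, knockout and Idh2 mutant MEP in that order, and were not called.

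**Figure D3:**
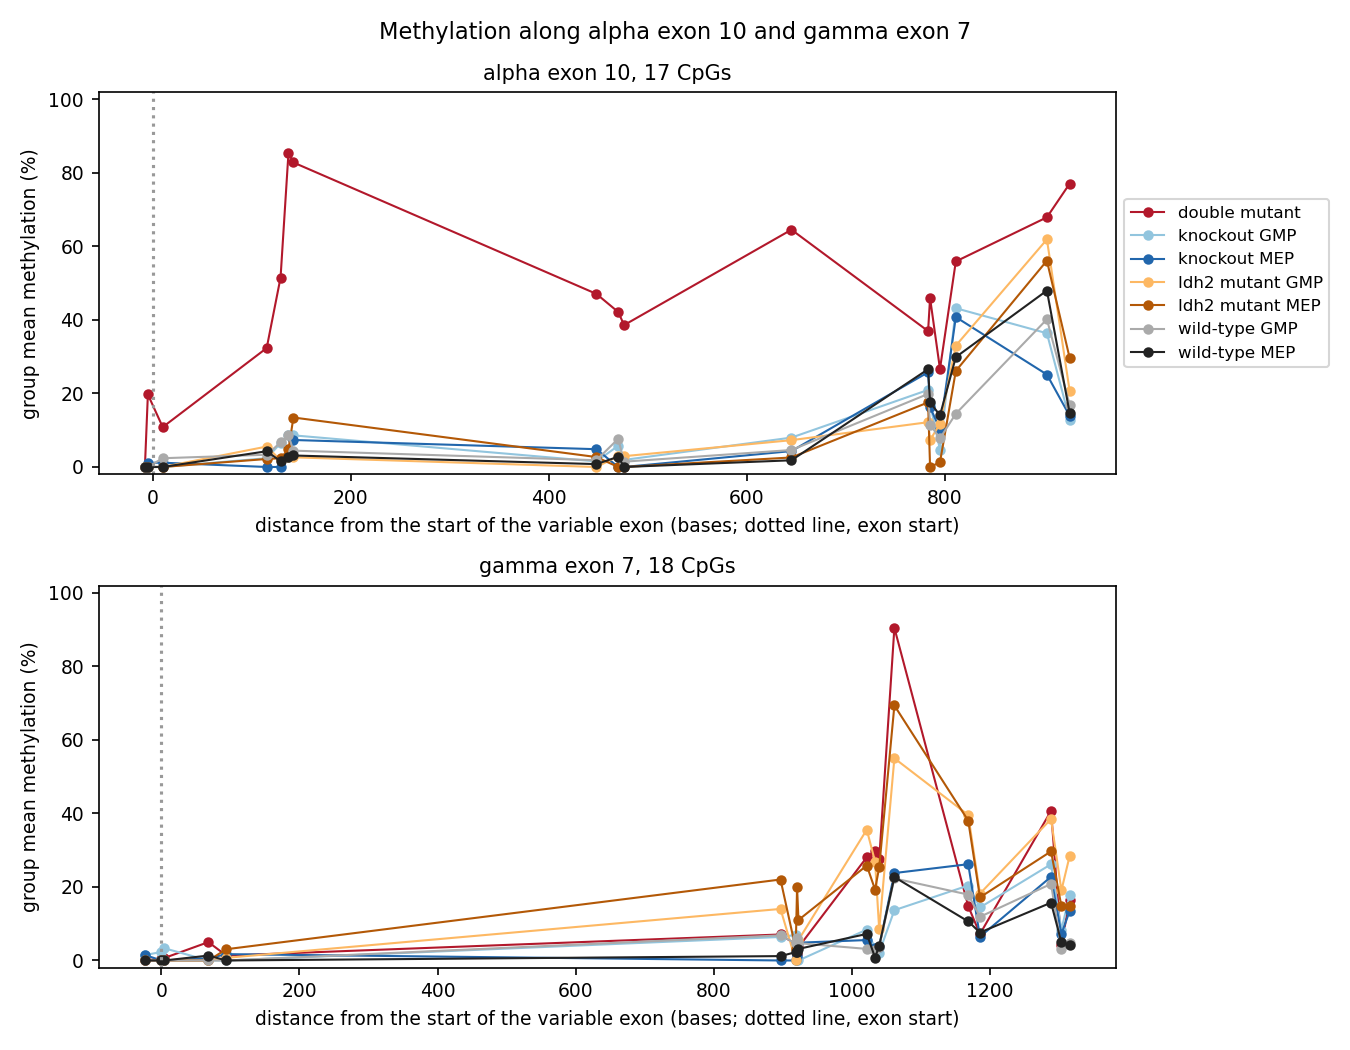
Group mean methylation (%) at each kept CpG of alpha exon 10 and gamma exon 7 against the distance in bases from the exon start (dotted line), with 1 line per group. In alpha exon 10 the double mutant line stands apart from 115 to 645 bases, where its mean is 55.6% against 2.13% in wild-type MEP. In gamma exon 7, from 1022 bases on, the double mutant mean is 28.8% and the Idh2 mutant MEP mean 28.3%, against 8.64% in wild-type MEP.

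The other alpha exons began higher. Alpha exon 1 (Pcdha11-204, chr18:37089939-37092326) read 85.3%, 86.2% and 88.5% in double mutant libraries, against 49.0% and 66.0% in knockout MEP, 53.5% and 61.2% in Idh2 mutant MEP and 69.7% and 40.7% in wild-type MEP. The double mutant lay above all 12 other libraries. It exceeded wild-type MEP by 31.5 points (adjusted p = 0.00660), knockout MEP by 29.2 (adjusted p = 0.00992) and Idh2 mutant MEP by 29.3 (adjusted p = 0.00951). The wild-type MEP libraries were far apart, and without replicate 2 that difference was 16.96 points (adjusted p = 0.110). Without knockout MEP replicate 1 the difference from knockout MEP was 20.7 points (adjusted p = 0.135). Alpha exon 2 (chr18:37098972-37102056) was already highly methylated, at 98.8%, 95.1% and 100% in double mutant against 80.9% and 81.3% in wild-type MEP, a difference of 16.9 points (adjusted p = 0.000313). It was 10.7 points above knockout MEP (adjusted p = 0.00917), a difference that fell under the 10-point minimum without knockout MEP replicate 2 (8.84) or without double mutant replicate 3 (9.64).

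Alpha exon 9 (Pcdha11-201, chr18:37249790-37252225) was the alpha exon whose group means were lowest in the knockout. It read 49.9%, 53.2% and 43.4% in double mutant, 15.8% and 19.6% in knockout MEP, 39.1% and 22.3% in Idh2 mutant MEP and 34.5% and 41.8% in wild-type MEP libraries. The double mutant was 31.1 points above knockout MEP (adjusted p = 0.000744), a call that held without any single library. It was 18.1 points above Idh2 mutant MEP (adjusted p = 0.0453) and 10.7 points above wild-type MEP (adjusted p = 0.139, not called). The call against Idh2 mutant MEP ended without double mutant replicate 1 (17.6 points) or replicate 2 (16.0), or without Idh2 mutant MEP replicate 2 (9.71). With the 3 CpGs inside the exon alone the difference from Idh2 mutant MEP was -7.68 points. At the CpG 52 bases upstream the double mutant mean was 72.2% against 17.6% in wild-type MEP, and at the CpG 400 bases into the exon it was 21.5% against 52.2%. The change was therefore not of 1 sign along this exon. Its excess over the sum of the single mutant changes, in the same added contrast, was 38.6 points (adjusted p = 0.00881), and the adjusted p was 0.111 with limma and 0.0513 without knockout MEP replicate 1.

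Among the beta genes, each a complete single-exon protocadherin, Pcdhb3 (ENSMUSG00000045498.1, chr18:37460453-37464239) had the largest difference from wild-type and from Idh2 mutant MEP, but not from knockout MEP. It read 94.2%, 97.5% and 94.6% in double mutant, 84.0% and 84.5% in knockout MEP, 74.8% and 60.1% in Idh2 mutant MEP and 57.5% and 35.7% in wild-type MEP libraries. Every double mutant library was above the other 12. The double mutant was 48.8 points above wild-type MEP (adjusted p = 5.27e-05), rank 76 of the 11023 features by size of difference, and that call held without any single library. It was 27.9 points above Idh2 mutant MEP (adjusted p = 0.00239), and 20.6 points (adjusted p = 0.0577) without Idh2 mutant MEP replicate 2. Against knockout MEP the 11.1 points were not called (adjusted p = 0.0565). Pcdhb3 rests on 3 CpGs, 457 to 575 bases into the exon. Pcdhb17 (chr18:37644675-37647943) read 97.1%, 92.6% and 98.2% in double mutant, 77.5% and 77.8% in knockout MEP and 85.5% and 70.1% in wild-type MEP libraries. It was 18.2 points above wild-type MEP (adjusted p = 0.0130) and 18.3 above knockout MEP (adjusted p = 0.0161). The first call ended without wild-type MEP replicate 2 (10.4 points), and the second without either knockout MEP replicate (18.2 and 18.4 points) or double mutant replicate 3 (17.2 points).

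Pcdhb2 (chr18:37454494-37457267) was the one exon called lower in a double mutant comparison. It read 71.3%, 78.1% and 68.3% in double mutant and 85.9% and 85.6% in knockout MEP libraries, a difference of -13.2 points (adjusted p = 0.0157). This call ended without either knockout MEP replicate (-13.0 and -13.3 points) or double mutant replicate 3 (-11.0), and with CpGs of at least 5 reads the difference was -3.38 points. Pcdhb12 was at 41.8% ± 1.29 in double mutant (SD, n = 3), 59.5% ± 4.80 in knockout MEP, 56.0% ± 18.6 in Idh2 mutant MEP and 52.0% ± 9.02 in wild-type MEP (SD, n = 2 each). Its double mutant libraries lay below the wild-type, knockout and Idh2 mutant MEP libraries without overlap, though narrowly so for Idh2 mutant MEP (42.86% against 42.91%). An Idh2 mutant GMP library was lower still (39.9%). Pcdhb12 was not called. Pcdhb1 (57.4% ± 4.72 in double mutant, n = 3, and 45.8% ± 11.2 in wild-type MEP, n = 2; SD) and Pcdhb16 (76.3% ± 3.59 and 67.1% ± 3.58 in the same groups) were not called either.

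In the gamma cluster the calls fell on 4 exons, and each of them ended when some single library was left out. Gamma exon 6 (Pcdhgc5-202, chr18:37925234-37928194) read 81.2%, 94.5% and 87.2% in double mutant, 66.7% and 78.7% in knockout MEP, 60.7% and 45.6% in Idh2 mutant MEP and 46.8% and 76.7% in wild-type MEP libraries. It was 26.0 points above wild-type MEP (adjusted p = 0.0250) and 34.5 above Idh2 mutant MEP (adjusted p = 0.0113). The call against wild-type MEP ended without wild-type MEP replicate 1 (11.002 points; 40.9 without replicate 2) or double mutant replicate 2 (22.5) or 3 (26.2), and that against Idh2 mutant MEP without Idh2 mutant MEP replicate 2 (27.0). Gamma exon 5 (Pcdhgc5-204, chr18:37915427-37918021) read 90.1%, 78.3% and 90.5% in double mutant and 28.7% and 70.9% in knockout MEP libraries. The difference of 36.6 points (adjusted p = 0.0317) was 15.5 points (adjusted p = 0.376) without knockout MEP replicate 1 and 57.7 points without replicate 2. That call also ended without double mutant replicate 1 (34.6 points) or 3 (34.5). Gamma exon 5 was 25.9 points above wild-type MEP and 27.7 above Idh2 mutant MEP, neither called (adjusted p = 0.0559 and 0.0878). Gamma exon 1 (chr18:37833989-37836561) read 82.2%, 93.0% and 96.2% in double mutant and 77.7% and 63.6% in wild-type MEP libraries, 19.8 points apart (adjusted p = 0.00996), and 12.8 points (adjusted p = 0.122) without wild-type MEP replicate 2. With limma the calls of gamma exons 1 and 6 against wild-type MEP ended (adjusted p = 0.0654 and 0.0809).

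Gamma exon 7 (Pcdhgc5-208, chr18:37966064-37968631) was low overall and varied most in the Idh2 mutant. It read 16.2%, 18.7% and 14.1% in double mutant, 3.4% and 8.2% in knockout MEP, 9.8% and 19.2% in Idh2 mutant MEP and 7.3% and 2.8% in wild-type MEP libraries, and in GMP 8.4% and 5.9% in knockout, 5.4% and 26.4% in Idh2 mutant and 6.4% and 6.8% in wild type. The 4 Idh2 mutant libraries, at 5.4% to 26.4%, thus overlapped the double mutant, the knockout and the wild type. The double mutant exceeded wild-type MEP by 11.3 points (adjusted p = 0.0362), knockout MEP by 10.5 (adjusted p = 0.0467) and Idh2 mutant MEP by 1.88 (adjusted p = 0.996, not called). The call against wild-type MEP ended without double mutant replicate 1, 2 or 3 (11.4, 10.2 and 12.5 points) or wild-type MEP replicate 2 (9.09). The call against knockout MEP ended without knockout MEP replicate 1 (8.12 points) or double mutant replicate 1, 2 or 3 (10.6, 9.33 and 11.6 points). With limma both ended (adjusted p = 0.129 and 0.164). Methylation lay well inside the exon. The 5 CpGs from 24 bases before to 94 bases after the exon start averaged at most 1.51% in any group. The 9 CpGs from 1022 to 1316 bases averaged 28.8% ± 7.50 in double mutant (SD, n = 3), 28.3% ± 14.4 in Idh2 mutant MEP, 12.5% ± 5.71 in knockout MEP and 8.64% ± 5.47 in wild-type MEP (SD, n = 2 each). Gamma exon 8, the least methylated of the 17, stayed at 1.2% to 6.3% in double mutant libraries and at 0.0% to 3.4% in the other 12. Gamma exons 2 and 3 were called in no comparison and had 74.1% ± 10.05 and 69.8% ± 3.90 in double mutant (SD, n = 3), against 73.4% ± 6.57 and 66.7% ± 3.90 in wild-type MEP (SD, n = 2).

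**Figure D4:**
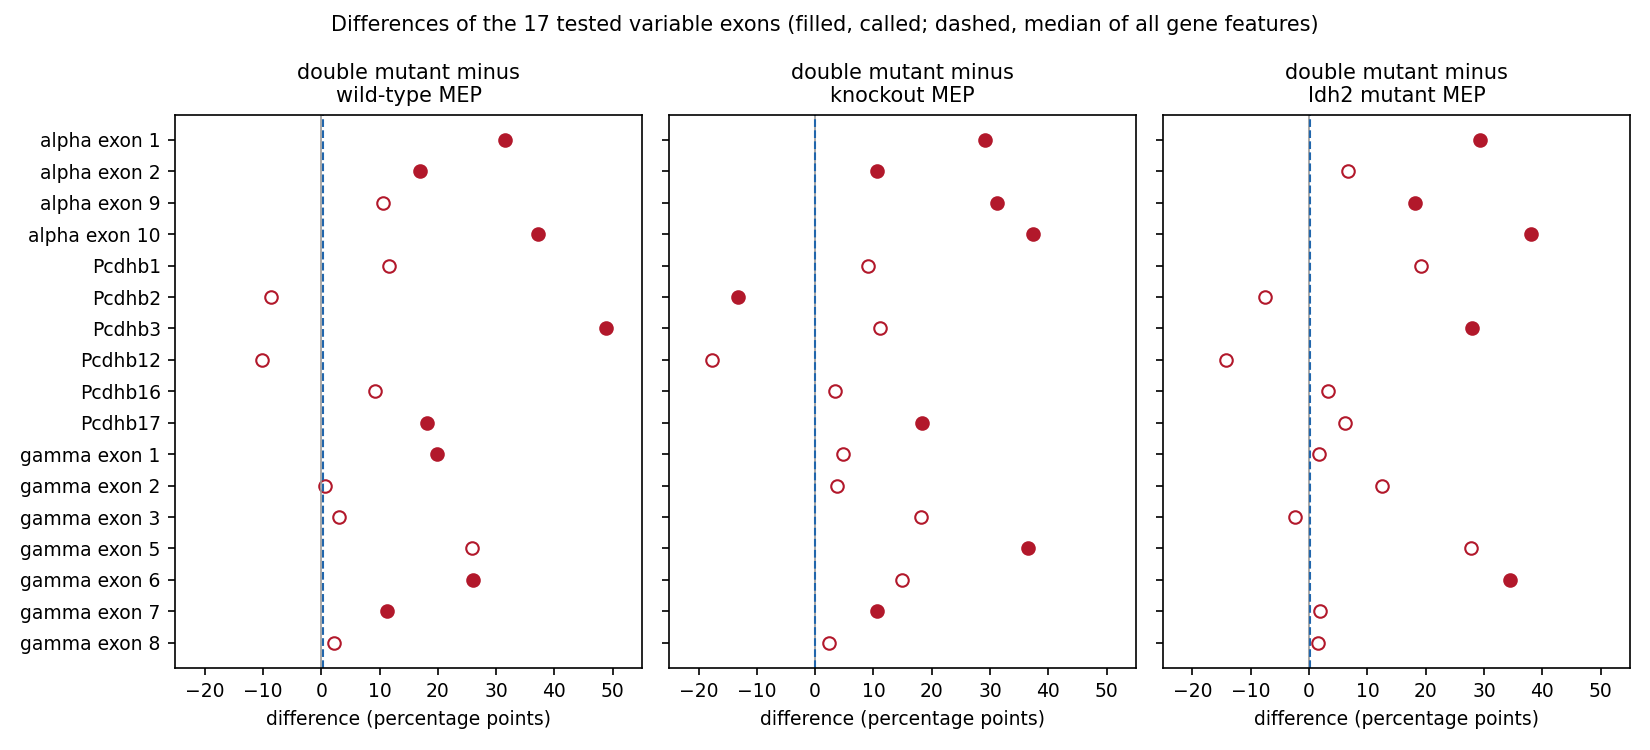
Difference in methylation (percentage points) of each tested variable exon between double mutant cells and wild-type, knockout and Idh2 mutant MEP. Filled points are called, and the dashed line is the median of all gene features (0.223, 0.0579 and 0.125 points). All 4 alpha exons are right of zero in each panel, while Pcdhb2 and Pcdhb12 are left of it.

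Loss of Dnmt3a alone, over GMP and MEP with equal weight, changed 2 of the 17 exons, 1 higher (background 0.154%) and 1 lower (background 0.454%). Pcdhb3 rose by 28.2 points, with 82.1% ± 4.42 in knockout and 53.8% ± 13.0 in wild-type cells (SD, n = 4 each; adjusted p of the quasi-binomial model 0.0191). Knockout libraries held 75.4% to 84.5% and wild-type libraries 35.7% to 66.5%, without overlap. Alpha exon 9 fell by 19.2 points, with 14.9% to 27.9% in knockout and 34.5% to 41.9% in wild-type libraries (adjusted p = 0.0404). Neither call was stable. The alpha exon 9 call ended without any 1 of the 8 libraries, at -16.0 to -22.5 points. The Pcdhb3 call ended when any of 5 libraries was left out: replicate 1 of knockout GMP (26.0 points) or of knockout MEP (28.3), either wild-type GMP library (30.9 and 25.5) and the second wild-type MEP library (22.8). With limma the adjusted p was 0.164 for Pcdhb3 and 0.266 for alpha exon 9. The cluster means differed by -2.65 points in alpha and -0.256 in gamma with overlapping libraries, and by 4.39 in beta without overlap. In beta the difference was 1.75 points within GMP and 7.04 within MEP.

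In the Idh2 mutant against wild type, over GMP and MEP with equal weight, 0 of the 17 exons were called (background 1.19% in either direction). The Idh2 mutant was Mx1-cre- and the wild type Mx1-cre+, and the part of Cre cannot be told apart from the mutation. Cre also differs between the double mutant and the Idh2 mutant. At an unadjusted p under 0.05, 6 of the 17 exons and 1767 of 11023 features passed in the quasi-binomial model. These counts may be too high, because unadjusted p-values of this model ran too low in unchanged features of simulated data. With limma 2 exons and 1703 features passed, and 0 exons were called. The largest difference was a positive 14.6 points in Pcdhb3, with 68.4% ± 7.70 in Idh2 mutant and 53.8% ± 13.0 in wild-type cells (SD, n = 4 each). The next were -14.1 points in Pcdhb1 and 14.0 in gamma exon 1, where all 4 Idh2 mutant libraries (85.4% to 93.2%) lay above the 4 wild-type libraries (63.6% to 81.4%). The cluster means differed by 1.70 points in alpha, 2.02 in beta and 3.52 in gamma, with overlapping libraries in each, beside 1.44 over all CpGs. Neither single mutant's effect differed between MEP and GMP at any of the 17 exons past the threshold.

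Between wild-type MEP and GMP, 0 of the 17 exons were called, and neither was any other gene feature (background 0%). At an unadjusted p under 0.05 there was 1 exon, alpha exon 2 at 81.1% ± 0.290 in MEP and 90.5% ± 2.66 in GMP (SD, n = 2 each), and 377 of 11023 features, while limma called 0 with 0 exons and 229 features. The beta mean differed by -4.58 points, lower in MEP than in GMP without overlap of the libraries, and by -2.71 points without wild-type MEP replicate 2. The alpha and gamma means differed by -1.61 and -1.87 points with overlap, and gamma by 1.31 and -5.04 points without wild-type MEP replicate 1 or 2.

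Genes related to the clusters were read for comparison, as first exons with 1 kb upstream, from lists chosen with earlier results known. Of 23 regulators of the clusters or of DNA methylation, 17 genes (18 features) were measured. None was called in double mutant against wild-type or knockout MEP. Against Idh2 mutant MEP 1, a Tet3 feature, was lower, where 1.49% of all gene features were. It was at 0.280% ± 0.485 in double mutant (SD, n = 3) and 10.5% ± 3.44 in Idh2 mutant MEP (SD, n = 2). A Smchd1 feature of 22 CpGs was not called because its differences stayed under 10 points. It was at 2.27% ± 0.391 in double mutant (SD, n = 3) and 9.97% ± 0.595 in wild-type MEP (SD, n = 2). That is -7.70 points (adjusted p of the quasi-binomial model 2.61e-05). Against wild type it differed by -8.38 points in the knockout and -8.61 in the Idh2 mutant. Of 19 non-clustered protocadherins and larger cadherin relatives, 12 genes (14 features) were measured. Of the 14 features 7 were higher and 0 lower than in wild-type MEP, 8 higher and 0 lower than in knockout MEP, and 6 higher and 1 lower than in Idh2 mutant MEP. The shares of all gene features called higher were 11.6%, 12.9% and 10.8%, and 1.49% were called lower than in Idh2 mutant MEP. Pcdh10 was at 59.5% ± 2.99 in double mutant and 4.30% ± 0.907 in wild-type MEP, and Pcdh8 at 45.6% ± 6.92 and 8.72% ± 2.26 in the same groups (SD, n = 3 and n = 2). Pcdh15 and Pcdh17 were also higher in all 3 comparisons, by 31.6 and 25.7 points against wild-type MEP, and Celsr3 was higher by 21.3 points against Idh2 mutant MEP. Dchs1 was at 57.5% ± 7.37 in double mutant (SD, n = 3), 18.8% in knockout MEP, 54.3% in Idh2 mutant MEP and 26.7% in wild-type MEP, and was called higher against knockout and wild-type MEP. It was the 1 feature of the list called in a single mutant, 27.7 points higher in the Idh2 mutant than in wild type (background 1.19% in either direction). Pcdh7 was the feature called lower, at 7.02% in double mutant and 22.0% in Idh2 mutant MEP. Of 14 classical cadherins, 8 genes (9 features) were measured, and 6 features were higher in the double mutant in each of the 3 comparisons, beside the same shares of all gene features. Features of Cdh2, Cdh3, Cdh4, Cdh8 and Cdh11 were called in each, Cdh22 against wild-type MEP, and Cdh1 against knockout and Idh2 mutant MEP. Cdh4 was at 66.1% ± 7.72 in double mutant and 2.87% ± 3.55 in wild-type MEP (SD, n = 3 and n = 2). Of the 5 symbols listed for neighbouring genes (Taf7, Diap1, Diaph1, Slc25a2 and Hdac3), 1, Diap1, had a measured feature, at 0% in all double mutant and 0.0874% on average in wild-type MEP libraries.

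Markers of other cell types cannot be checked as expression here. Of 9 erythroid and megakaryocyte markers 2 genes (6 features) were measured, and 2, 4 and 4 features were higher in double mutant than in wild-type, knockout and Idh2 mutant MEP. Among them a feature of Itga2b, the megakaryocyte integrin alpha IIb, was at 74.3% ± 8.54 in double mutant and 2.81% ± 2.40 in wild-type MEP (SD, n = 3 and n = 2). A feature of Ank1, the red cell ankyrin, was at 34.8% ± 3.01 and 6.81% ± 3.28 in the same groups. Another Itga2b feature was called lower than in wild type in both single mutants, by -15.3 points in the knockout and -14.4 in the Idh2 mutant. Of all gene features 0.454% were called lower in the knockout, and 1.19% were called in either direction in the Idh2 mutant. Of 9 granulocyte and macrophage markers 2 genes (3 features) were measured, and 1 feature, of Fcgr3, was higher in each double mutant comparison. Of 8 lymphoid markers 2 genes (2 features) were measured, with 0 called against wild-type and Idh2 mutant MEP and 1, of Pax5, 13.7 points higher than in knockout MEP. The shares of all gene features called higher stand above, at 11.6%, 12.9% and 10.8%. None of the 5 stromal and endothelial markers had a measured feature. Their part in the results was not tested.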

How the data were processed

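The authors deposited, for each library, the methylated and total read counts per cytosine and their ratio as a fraction; the submitters' processing notes name BSMAP 2.74 and mm9. Counts of both strands were added, and an autosomal CpG was kept if each of the 15 libraries covered it with 10 or more reads. Gene features were each distinct first exon plus 1 kb upstream with at least 3 kept CpGs, overlapping ones of a gene merged, since the annotation joins alpha and gamma exons under single gene models. Of 51079 features 11023 were tested. Methylated against total counts were fitted over all 7 groups by a quasi-binomial logistic model with dispersions squeezed across features, an F test per contrast and Benjamini-Hochberg adjustment (Python 3.11.15, numpy 2.4.6, scipy 1.17.1). The code was tested on simulated data. There, low unadjusted p-values of the quasi-binomial model were more frequent in unchanged features than the nominal rate, mostly at low methylation. Counts at an unadjusted p of this model may therefore be too high wherever they are given. Few of the simulated calls by adjusted p and minimum difference were false. limma 3.58.1 was an alternative, beside other coverage minima, feature parts, difference minima, a replicate block and leaving out libraries. The named exons were all those called, and the 3 highest and lowest of each cluster in wild type. The annotation does not name the 5 C-type genes of that rule separately. They were not assigned to exons here, so C-type and other exons were not compared. Genes of other lists were named where called, at most the 5 largest per list and comparison. Smchd1 was named as well, for its adjusted p. Members and lists were chosen with earlier results of these data known. Reads carry no molecular identifiers, so depth covers counting error only. No sequence of chromosome 18 is given.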

Additional observations from a re-analysis of the deposited data

Results flagged for a closer look

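For 2 variable exons, the double mutant change differed from the sum of the single mutant changes in MEP, in a contrast added after the data were seen (quasi-binomial model, adjusted over 11023 features, of which 742 were called). The p of this contrast concerns a sum of log-odds, while the points below are differences of group mean percentages. Alpha exon 9 exceeded that sum by 38.6 points (adjusted p = 0.00881) and alpha exon 10 by 38.2 points (adjusted p = 0.00783). Without each library in turn, alpha exon 10 ranged from 33.8 to 42.7 points and remained called, while alpha exon 9 ranged from 30.2 to 47.0 points and lost its call without knockout MEP replicate 1 (36.7 points). With limma 0 of the 17 exons passed this contrast. Alpha exon 10 was at 28.9 points (adjusted p = 0.355) with CpGs of 20 reads alone, and alpha exon 9 at 16.2 points (adjusted p = 0.748) with CpGs inside the exon alone. The double mutant has no GMP libraries, so the contrast could be formed in MEP only. The cause was not tested.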

How the results depend on the processing

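The cause of a changed value was not tested unless fewer CpGs or libraries were used. Exons called in double mutant against wild-type, knockout and Idh2 mutant MEP numbered 8, 8 and 5. At 20 reads, where 8 exons were tested, they numbered 4 (1 of them lower), 3 and 2. With 1 kb upstream alone, where 1 was tested, they numbered 0, 0 and 0. Against wild-type MEP 5 were called with limma, 4 with the compared groups alone and 4 at a minimum of 25 points. Against knockout MEP 5 were called with the first exon alone and 4 at 25 points. For knockout against wild type (2 called), the count was 0 with limma, with upstream alone, with the compared groups alone and in GMP alone, and 1 at 20 reads, at 5 reads, at 25 points, with the first exon alone and in MEP alone. For Idh2 mutant against wild type it was 1 at 5 reads. Leaving out each library gave 5 to 8, 3 to 7 and 2 to 5 calls in the double mutant comparisons, and 0 to 1 in both single mutant comparisons. Among the settings run, the only reversal of a called exon was alpha exon 9 against Idh2 mutant MEP, at -7.68 points inside the exon.

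Replicate numbers are shared between groups without a stated pairing. The deviations of same-numbered libraries correlated at 0.374 between wild-type GMP and MEP and 0.503 between Idh2 mutant GMP and MEP. Between knockout GMP and MEP the value was 0.00372. Same-numbered GMP and MEP libraries of the wild type and of the Idh2 mutant may thus not be independent. The tests and the SDs over GMP and MEP together treat them as independent. The replicate block fits 1 effect per replicate number over all genotypes, so it does not model pairs within a genotype. With the replicate block 4 exons were called against wild-type MEP, 4 against knockout MEP and 1 in knockout against wild type. Between Idh2 mutant and wild-type GMP the correlation was -0.12, and with those numbers crossed (added after seeing the data) 0 exons were called.

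For the alpha cluster, the double mutant difference from wild-type MEP was 19.4 points at 20 reads, 26.1 with reads summed, 23.7 with equal weight per gene, 19.4 upstream and 25.7 at 5 reads. From knockout MEP it was 20.6 at 20 reads, 26.0 per gene, 23.7 upstream and 25.9 at 5 reads, and from Idh2 mutant MEP 24.7, 19.8, 18.1 and 23.7 in that order. For gamma it was 8.02 at 20 reads and 22.0 upstream from wild-type MEP, 21.0 upstream from knockout MEP, and 1.10 at 20 reads, 23.0 upstream and 8.35 at 5 reads from Idh2 mutant MEP. For beta it was 8.77 with reads summed from wild-type MEP, -3.15 at 20 reads from knockout MEP, and 5.59 at 20 reads, 7.73 with reads summed and 5.03 at 5 reads from Idh2 mutant MEP. In knockout against wild type alpha was -5.10 upstream, and beta 1.75 in GMP and 7.04 in MEP. In Idh2 mutant against wild type alpha was -2.71 at 20 reads, 3.19 per gene and -0.484 upstream, beta -1.46 at 20 reads, -2.63 with reads summed and 4.97 per gene, and gamma 7.23 at 20 reads and -2.89 upstream. In wild-type MEP against GMP alpha was 1.33 with reads summed and -3.83 per gene, and beta -9.03 with reads summed. The 5-read setting was added after seeing the data. The 24 untested exons, mostly beta, and the 2 or 3 libraries per group limit what these values cover.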

Other observations

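Lowering the minimum to 5 reads in all libraries, a setting chosen after seeing the data, brought 2 more variable exons into the test. Pcdha3, an alpha gene with its own model in the annotation, was at 41.7% ± 7.86 in double mutant (SD, n = 3), 46.1% ± 15.6 in knockout MEP, 28.4% ± 5.08 in Idh2 mutant MEP and 24.5% ± 2.68 in wild-type MEP (SD, n = 2 each), and was not called (adjusted p = 0.0513 against wild-type MEP in the quasi-binomial model). Gamma exon 9, the last of the gamma array, was at 89.3% ± 4.38 in double mutant (SD, n = 3) and 90.3% ± 3.11 in wild-type MEP (SD, n = 2). The last exon of the alpha array, alpha exon 10, was at 11.04% ± 0.322 in wild-type MEP (SD, n = 2).

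The clusters differ in sequence make-up, counted over all 41 variable exons. GC content had a median of 53.6% in alpha, 47.0% in beta and 53.3% in gamma exons, and the ratio of observed to expected CpGs a median of 0.655, 0.404 and 0.533 in that order. The exon sequences hold 3742 CpGs. Counting the exons and 1 kb upstream, 504 CpGs had a read in some library and 116 were kept.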
